A study of Rattus norvegicus with 40 samples.

Results

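The D2 plasma of 16 injured rats was compared by their later epilepsy outcome. All were adult male Sprague-Dawley rats with a traumatic brain injury (TBI) from lateral fluid percussion, a pressure pulse applied to the exposed dura that produces a severe injury. In 7 rats video-EEG recorded months later found unprovoked seizures (TBI+, labelled TBIE), and in 9 rats it found none (TBI−, labelled TBIN). The 4 sham-operated rats had anesthesia and craniotomy without the pulse. They serve here as a reference level, and their libraries also enter the scaling and the estimate of the spread in the main fit. These 16 libraries are part of 40 libraries from 20 rats, since each rat was sampled on D2 and on D9. Plasma was drawn from the tail vein under isoflurane, and 1 library was made per rat and day from pooled aliquots of that rat. The comparison asks whether the miRNAs of plasma 2 days after the injury differ between rats that will and will not have epilepsy. It was made over all 752 miRNAs of the deposited counts. Of these, 565 had a read in any D2 library, 555 had a read in the 16 injured libraries and 265 had a mean of at least 10 CPM in them, where CPM is the count per 1000000 miRNA reads of the library.

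MicroRNAs are short RNAs that guide the silencing of messenger RNAs, mainly through their seed, bases 2 to 8 from the 5′ end. Those in plasma are carried by proteins and vesicles and come from blood cells, vessels, liver and other organs, and after brain injury also from neurons. Post-traumatic epilepsy develops in a fraction of injured individuals after a latent period, and a plasma miRNA that differed in that period could serve as a marker of it. A level in plasma is a mixture, so fewer releasing cells and less RNA per cell cannot be told apart.

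The 12 miRNAs described first are the 6 with the lowest unadjusted p in each direction among those of at least 10 CPM. Of them, and of miR-132-3p, the mature sequences that RefSeq lists in the assembly GRCr8 are shown with the seed in capitals because a shared seed means a shared set of possible targets.
miR-128-3p: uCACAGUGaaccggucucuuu
miR-345-3p: cCCUGAACuaggggucuggaga
miR-18a-3p: aCUGCCCUaagugcuccuucu
miR-1249: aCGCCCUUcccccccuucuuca
let-7d-3p: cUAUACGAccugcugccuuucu
miR-27a-5p: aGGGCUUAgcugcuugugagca
miR-155-5p: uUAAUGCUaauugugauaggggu
miR-92a-1-5p: aGGUUGGGauuugucgcaaugcu
miR-212-3p: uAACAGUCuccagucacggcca
miR-181a-5p: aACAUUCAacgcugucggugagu
miR-132-3p: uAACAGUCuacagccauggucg
The first 5 had higher means in TBI+ rats, together with miR-429, and the next 5 had lower means, together with miR-150-3p. Only miR-212-3p and miR-132-3p share their seed, AACAGUC, and none of the other sequences shown has it. MiR-128-3p is made from a pair of genes, Mir128-1 within R3hdm1 and Mir128-2 within Arpp21, and its reads cannot be divided between them. Mir1249 lies within Kiaa0930 on the same strand. MiR-18a-3p and miR-92a-1-5p are the minor arms of hairpins of the same cluster, miR-17-92, and their differences had opposite signs.

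The sums of miRNA reads were 1367608 ± 664885 in TBI+ and 1259994 ± 563183 in TBI− rats (SD, n = 7 and n = 9). They lay between 404542 and 2562083, so that 3 reads, the limit that a count of 0 allows, amounted to 1.17 CPM in the deepest library and 7.42 CPM in the shallowest. This limit covers counting error only, because PCR copies of 1 molecule count as several reads. Reads were found on 419 ± 23.8 miRNAs per TBI+ rat and on 417 ± 26.8 per TBI− rat (two-sided exact permutation test over all 11440 assignments of the outcomes, p = 0.924). The hemolysis index, the log2 ratio of red cell miR-451-5p to miR-23a-3p, was −0.276 ± 0.551 in TBI+ and −0.275 ± 0.743 in TBI− rats (exact permutation test, two-sided, p = 1.00). The 10 most abundant miRNAs took 61.3% ± 4.16 of the reads in TBI+ and 63.3% ± 4.20 in TBI− rats (exact permutation test, two-sided, p = 0.352). The log10 library total gave p = 0.767 in the same exact permutation test, and after Benjamini-Hochberg adjustment over the 4 measures each p was 1.00. The library numbers in the column names form 3 runs whose meaning is not given in the sources used here. On D2, TBI+ rats 1 to 4 and the 4 sham rats share the first run, TBI− rats 7 to 9 make up the third, and only the second run holds both outcomes (3 TBI+ and 6 TBI− rats). Outside it, outcome and library number cannot be told apart.

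No miRNA separated the outcomes. Among the 565 miRNAs, the quasi-likelihood test of edgeR called 0 after Benjamini-Hochberg adjustment, at an adjusted p below 0.05 (percent called 0.00), and DESeq2 on the same counts also called 0. At an unadjusted p below 0.05 there were 38 in edgeR (6.73%), of which 22 were higher in TBI+ (3.89%) and 16 lower (2.83%), and 26 in DESeq2. Among the 265 miRNAs of at least 10 CPM, 22 had such a p (8.30%). No miRNA had all TBI+ rats above or below all TBI− rats (0.00%). As a scale for these numbers, the contrast of all injured rats with the sham rats in the same fit called 36 miRNAs (6.37%). In that contrast injury and library number are partly mixed, because all sham rats lie in the first run, which holds no TBI− rat.

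The lowest p belonged to miR-128-3p, a brain-enriched miRNA known to dampen neuronal excitability. MiR-128-3p ranged from 5813 to 15111 CPM in TBI+ rats (median 8260.4) and from 3632 to 7784 CPM in TBI− rats (median 5561), against 6305 ± 1586 CPM in sham. The means were 9418 ± 3181 and 5518 ± 1386 CPM, a log2FC of 0.70 (standard error 0.19, 95% interval 0.32 to 1.08, adjusted p = 0.393). The groups overlapped, but every TBI+ rat lay above the TBI− median, and the TBI+ rat was higher in 58 of the 63 TBI+ and TBI− pairs. MiR-345-3p ranged from 42.0 to 74.6 CPM in TBI+ rats (median 53.2) and from 16.1 to 49.7 CPM in TBI− rats (median 28.4), against 58.4 ± 21.3 CPM in sham. Its means were 54.3 ± 12.7 and 28.8 ± 10.3 CPM, a log2FC of 0.87 (standard error 0.26, 95% interval 0.34 to 1.40, adjusted p = 0.428). Here too each TBI+ rat exceeded the TBI− median, with 60 of the 63 pairs higher in TBI+, and the mean of the sham rats was near that of the TBI+ rats. The sham rats share their run of library numbers with TBI+ rats only. MiR-429 ranged from 373 to 957 CPM in TBI+ rats (median 569.8) and from 201 to 660.0 CPM in TBI− rats (median 350.5), against 559.5 ± 160.1 CPM in sham. The means were 647 ± 224 and 386 ± 141 CPM, a log2FC of 0.67 (standard error 0.22, 95% interval 0.21 to 1.12, adjusted p = 0.428). MiR-429 belongs to the miR-200 family of epithelial cells, and 1 of the 9 TBI− rats exceeded the TBI+ median.

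The other 3 miRNAs with higher means in TBI+ than in TBI− rats had their highest means in sham rats. MiR-18a-3p ranged from 27.0 to 89.3 CPM in TBI+ rats (median 66.9) and from 28.0 to 56.9 CPM in TBI− rats (median 39.2), against 101.9 ± 28.0 CPM in sham. The means were 65.1 ± 21.4 and 38.9 ± 9.49 CPM, a log2FC of 0.67 (standard error 0.22, 95% interval 0.21 to 1.12, adjusted p = 0.428). The lowest of the 16 values was that of TBI+ rat 7, and the other 6 TBI+ rats lay above the TBI− median. MiR-1249 ranged from 29.7 to 70.5 CPM in TBI+ rats (median 52.3) and from 15.1 to 55.0 CPM in TBI− rats (median 23.1), against 96.5 ± 40.6 CPM in sham. The means were 52.0 ± 15.6 and 27.4 ± 13.4 CPM, a log2FC of 0.86 (standard error 0.29, 95% interval 0.27 to 1.46, adjusted p = 0.428). All TBI+ rats were above the TBI− median, and 1 TBI− rat, rat 2 at 55.0 CPM, exceeded the TBI+ median. Without TBI− rat 2 miR-1249 and miR-345-3p were both called, with log2FC of 1.15 and 1.09 (adjusted p = 0.0339 and 0.0310 in edgeR). Let-7d-3p ranged from 1823 to 3315 CPM in TBI+ rats (median 2694) and from 1083 to 2759 CPM in TBI− rats (median 1645), against 4309 ± 918 CPM in sham. The means were 2569 ± 568 and 1726 ± 507 CPM, a log2FC of 0.50 (standard error 0.18, 95% interval 0.13 to 0.88, adjusted p = 0.488). Let-7d-3p is the minor arm of a let-7 hairpin and lacks the let-7 seed. For let-7d-3p, miR-18a-3p and miR-1249 the TBI− mean was further from the sham mean than the TBI+ mean was. Against sham, the log2FC was −1.19, −1.24 and −1.67 in TBI− and −0.69, −0.57 and −0.80 in TBI+ rats. Both sets share the sham rats, and the test of the difference is that between the outcomes given with each miRNA. The sham rats also lie in the first run of library numbers, with TBI+ rats 1 to 4 and no TBI− rat. Let-7d-3p was at 2694 to 3315 CPM in those TBI+ rats and at 1823 to 2333 CPM in TBI+ rats 5 to 7. For miR-18a-3p these ranges were 66.9 to 89.3 and 27.0 to 57.8 CPM, and for miR-1249 they overlapped. Distance from sham and library number cannot be told apart here.

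Lower means in TBI+ rats were led by miR-27a-5p, the minor arm of a hairpin whose major arm is common in vessels and myeloid cells. MiR-27a-5p ranged from 7.17 to 26.2 CPM in TBI+ rats (median 16.0) and from 16.1 to 41.9 CPM in TBI− rats (median 28.7), against 22.9 ± 10.8 CPM in sham. The means were 16.6 ± 7.08 and 29.4 ± 9.02 CPM, a log2FC of −0.91 (standard error 0.31, 95% interval −1.54 to −0.28, adjusted p = 0.428). No TBI+ rat exceeded the TBI− median, and all 9 TBI− rats exceeded the TBI+ median. MiR-155-5p is induced in activated macrophages and lymphocytes. MiR-155-5p ranged from 44.5 to 130.2 CPM in TBI+ rats (median 86.3) and from 67.1 to 279 CPM in TBI− rats (median 132.9), against 230.1 ± 114 CPM in sham. The means were 93.7 ± 33.8 and 143 ± 72.2 CPM, a log2FC of −0.73 (standard error 0.28, 95% interval −1.31 to −0.15, adjusted p = 0.490). Of the 9 TBI− rats, 5 lay above the highest TBI+ rat, and the other 4 lay inside the TBI+ range. MiR-92a-1-5p ranged from 8.66 to 37.7 CPM in TBI+ rats (median 12.5) and from 12.5 to 61.5 CPM in TBI− rats (median 21.0), against 42.1 ± 24.99 CPM in sham. The means were 18.0 ± 10.4 and 30.4 ± 16.9 CPM, a log2FC of −0.85 (standard error 0.36, 95% interval −1.59 to −0.11, adjusted p = 0.665). The groups overlapped over most of their range.

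MiR-212-3p is transcribed with miR-132 and induced by neuronal activity. MiR-212-3p ranged from 23.9 to 41.2 CPM in TBI+ rats (median 33.5) and from 31.7 to 61.8 CPM in TBI− rats (median 44.3), against 18.0 ± 1.59 CPM in sham. The means were 32.7 ± 6.51 and 44.2 ± 11.1 CPM, a log2FC of −0.48 (standard error 0.21, 95% interval −0.91 to −0.05, adjusted p = 0.665). Every injured rat was above every sham rat, and within the injured rats no TBI+ rat exceeded the TBI− median. Its seed-sharing neighbour miR-132-3p was at 62.5 ± 14.7 CPM in TBI+ and 70.7 ± 18.7 CPM in TBI− rats, with a log2FC of −0.26 (standard error 0.23). MiR-150-3p ranged from 42.2 to 137 CPM in TBI+ rats (median 96.1) and from 64.4 to 228 CPM in TBI− rats (median 122), against 157.6 ± 53.2 CPM in sham. The means were 97.9 ± 30.8 and 135 ± 61.0 CPM, a log2FC of −0.57 (standard error 0.26, 95% interval −1.11 to −0.03, adjusted p = 0.694). MiR-150 is abundant in mature lymphocytes, and the major arm miR-150-5p, at 15609.8 ± 5079 CPM in TBI+ and 14992 ± 6734 CPM in TBI− rats, had a log2FC of −0.02. MiR-181a-5p ranged from 13025 to 23393 CPM in TBI+ rats (median 19235) and from 10712 to 36510.3 CPM in TBI− rats (median 22104), against 22028 ± 2369 CPM in sham. The means were 18084 ± 4511 and 22806 ± 7151 CPM, a log2FC of −0.41 (standard error 0.19, 95% interval −0.81 to −0.01, adjusted p = 0.694). Known from lymphocytes and brain, miR-181a-5p overlapped widely between the outcomes, and its TBI+ range lay within its TBI− range. An unadjusted p below 0.05 was also given by the exact permutation test (two-sided, difference of mean log2 of CPM + 1) for 8 of these 12 miRNAs, the lowest p being 0.000874 for miR-345-3p, and none passed Benjamini-Hochberg adjustment over all miRNAs.

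**Figure D1:**
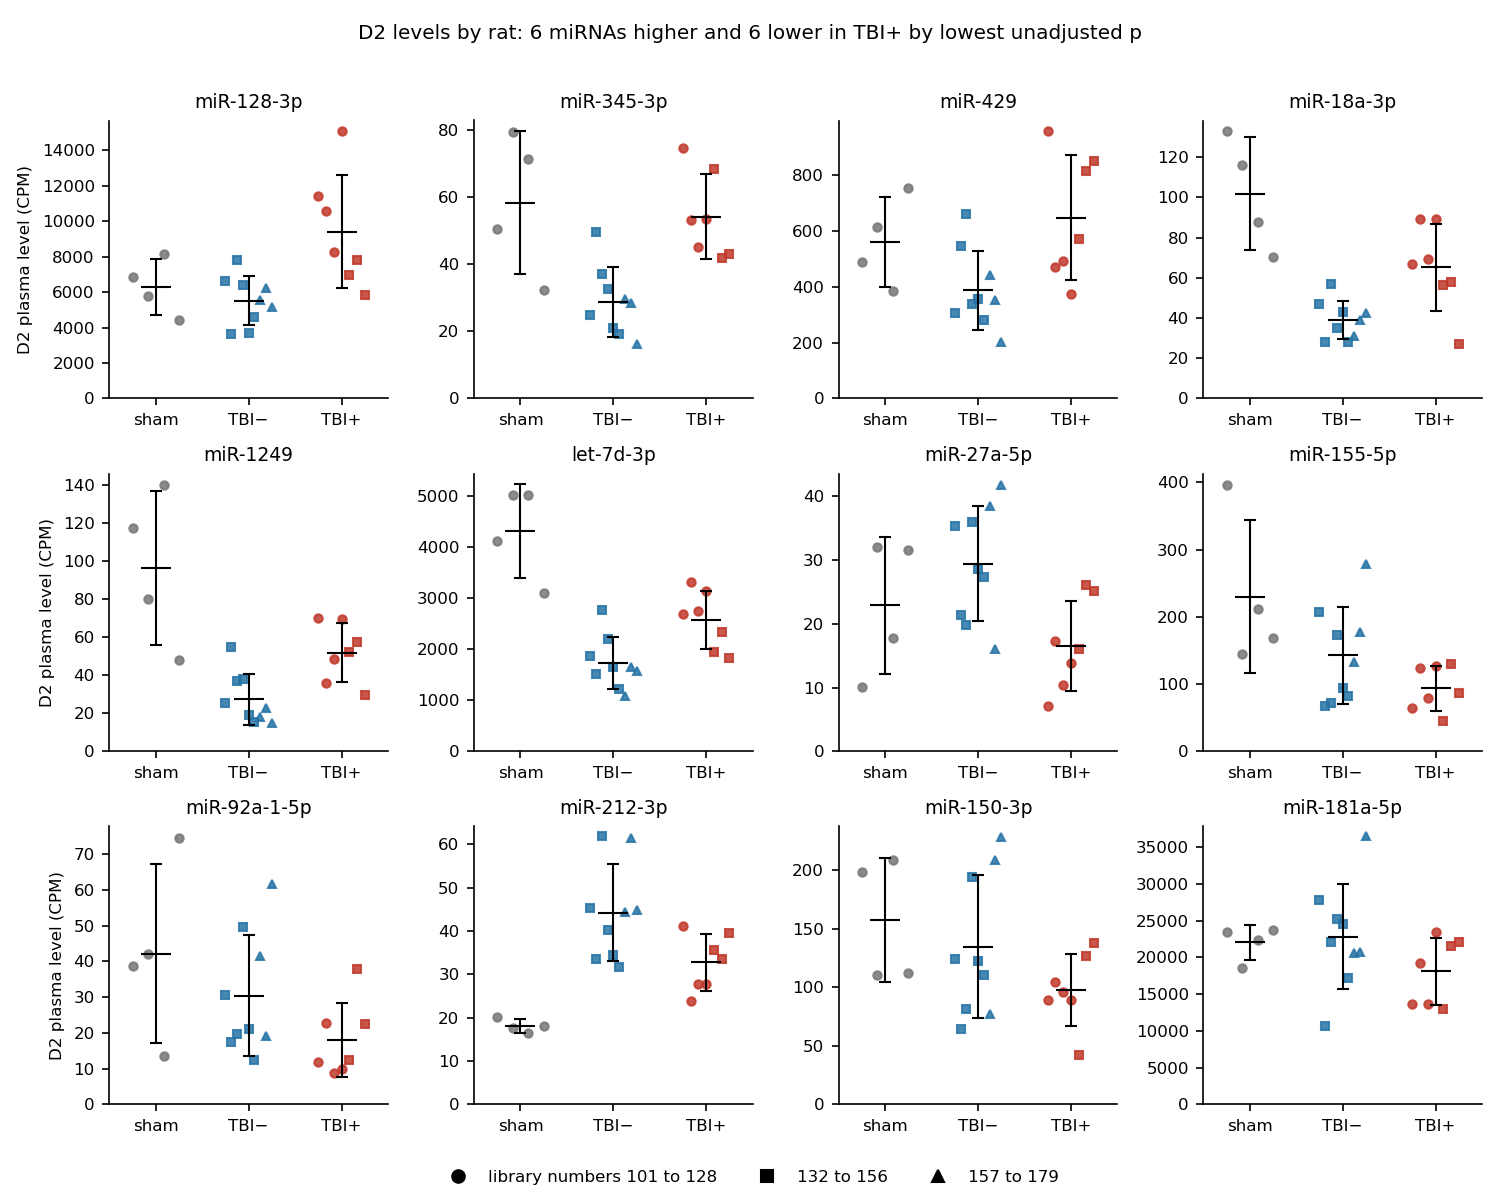
Plasma level in CPM of each rat on D2 (points; linear axis from 0) for the 12 miRNAs, with the mean and SD of sham (n = 4), TBI− (n = 9) and TBI+ rats (n = 7) as black bars and the run of library numbers as the marker shape. In each panel the TBI+ and TBI− rats overlap, and TBI+ rats 1 to 4 (circles) never share a marker with a TBI− rat.

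In the only run of library numbers that holds both outcomes, the log2FC of all 12 miRNAs had the same sign as over all 16 rats, and for 11 of the 12 it was nearer to 0. The 12 were chosen for low p over rats that include these 9, so neither the sign nor the smaller size is independent evidence. MiR-429 was the exception, at 745 ± 152.5 CPM in 3 TBI+ and 414 ± 153 CPM in 6 TBI− rats (log2FC 0.86, standard error 0.30, adjusted p = 0.489 from the edgeR test in this run). MiR-345-3p was at 51.1 ± 14.9 CPM against 30.7 ± 11.5 CPM (log2FC 0.79). For miR-128-3p the 3 TBI+ rats were at 6857 ± 993 CPM and the 6 TBI− rats at 5455 ± 1715 CPM (log2FC 0.38, standard error 0.25). The 4 TBI+ rats of the first run were at 11339 ± 2845 CPM, and none of them was as low as any TBI+ rat of the second run. All 4 were also above the highest sham rat of the same run, at 8165 CPM. Let-7d-3p, miR-92a-1-5p, miR-212-3p, miR-150-3p and miR-181a-5p had within-run log2FC between −0.18 and 0.16. With the run as a covariate in the fit of all 20 libraries, none of the 12 was called.

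These miRNAs were chosen on D2 alone, and the D9 values of the same rats are given beside them. The D9 libraries also lie unevenly over the runs of library numbers, in another way than on D2. TBI+ rats 1 to 4 are in the third run and TBI− rats 5 to 8 in the second, and only the first run holds both outcomes (3 TBI+ and 5 TBI− rats). On D9 the edgeR test called 0 of 541 miRNAs between the outcomes (0.00%), with 22 at an unadjusted p below 0.05 (4.07%). The sham libraries of D9 entered the scaling and the spread of this fit too. The study reported far fewer mapped reads in them than in the injured rats on D9. The 6 miRNAs with higher D2 means in TBI+ rats had D9 log2FC between −0.69 and −0.03, so that none was higher in TBI+ on D9. MiR-128-3p was at 5891 ± 3490.0 CPM in TBI+ and 6359.8 ± 2486 CPM in TBI− rats on D9. Let-7d-3p was at 1853 ± 523 CPM and 3110.3 ± 1234 CPM (log2FC −0.69, standard error 0.27, adjusted p = 0.802 from the edgeR test of D9). Of the 6 with lower D2 means, miR-150-3p and miR-181a-5p had higher TBI+ means on D9, with log2FC of 0.51 and 0.33, miR-212-3p was at 0.02, and the other 3 lay between −0.14 and −0.11.

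The miRNAs that the study followed up by PCR were not called between the outcomes. MiR-124-3p, the most abundant neuronal miRNA of the brain, had no read in any sham rat. It ranged from 14.6 to 71.7 CPM in TBI+ rats (median 29.3) and from 11.1 to 50.9 CPM in TBI− rats (median 29.7), so that every injured rat had reads and the ranges overlapped, with TBI+ rat 1 above and TBI− rats 5 and 6 below all rats of the other outcome (log2FC −0.02, 95% interval −0.70 to 0.66, adjusted p = 1.00 from the edgeR test). MiR-129-5p, also brain-enriched, ranged from 47.6 to 161 CPM in TBI+ rats (median 71.0) and from 34.9 to 95.3 CPM in TBI− rats (median 74.0), with 14.01 ± 14.1 CPM in sham (log2FC 0.27, 95% interval −0.37 to 0.91). Its counts were even in 17 of the 19 D2 libraries with reads and the annotation has 2 genes for it. Whether reads were counted once for each gene was not tested. TBI+ rats 1, 2 and 7 held its 3 highest values, while the other 4 TBI+ rats lay inside the TBI− range. MiR-136-3p and miR-323-3p come from the imprinted Dlk1-Dio3 locus, which is active in brain. MiR-136-3p was at 81.4 ± 20.8 and 75.7 ± 20.2 CPM in TBI+ and TBI− rats (log2FC 0.05, 95% interval −0.40 to 0.49). MiR-323-3p was at 38.2 ± 14.4 and 34.2 ± 16.6 CPM (log2FC 0.06, 95% interval −0.59 to 0.72).

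MiR-140-3p of cartilage ranged from 4085 to 7208 CPM in TBI+ rats (median 5818) and from 5152 to 6883 CPM in TBI− rats (median 5899), below all sham rats (log2FC −0.15, 95% interval −0.46 to 0.16). MiR-149-5p was at 254 ± 68.8 and 242 ± 65.1 CPM (log2FC −0.01, 95% interval −0.41 to 0.40), and miR-455-5p, another cartilage miRNA, at 106 ± 58.7 and 107 ± 31.4 CPM (log2FC −0.12, 95% interval −0.64 to 0.40). The study's reference miRNA miR-28-3p was at 952 ± 116 and 972 ± 85.5 CPM (log2FC −0.11, 95% interval −0.43 to 0.20). For miR-140-3p, miR-149-5p, miR-136-3p and miR-28-3p the interval lies within a 2-fold difference in either direction, and so it does for miR-124-3p, miR-129-5p, miR-323-3p and miR-455-5p. The signs of miR-455-5p, miR-124-3p and miR-149-5p turned under other scalings, and those of miR-132-3p, miR-323-3p and miR-28-3p within the second run of library numbers. No D2 library held a read of miR-9a-3p or of miR-434-3p. The study did detect both by RT-qPCR in other D2 plasma aliquots of these rats, so the missing reads do not show their absence from plasma.

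**Figure D2:**
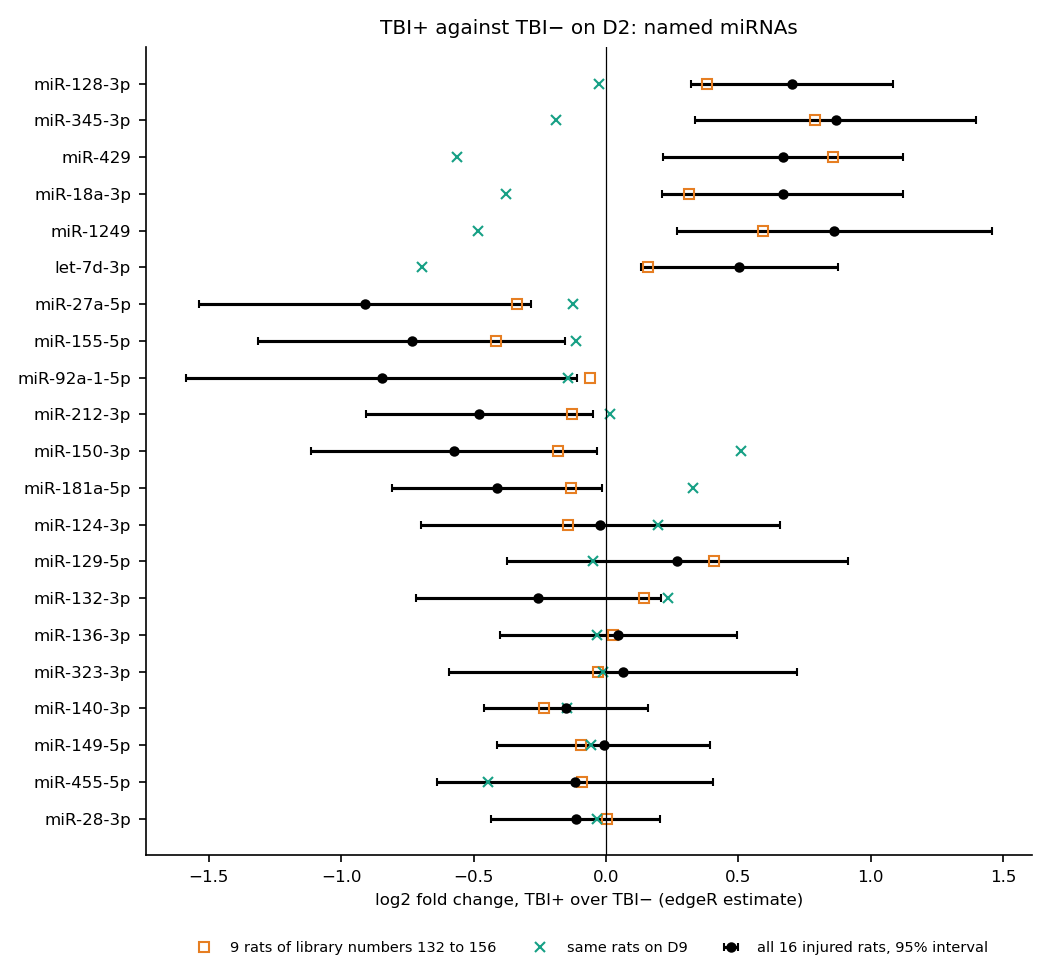
The log2 fold change of TBI+ over TBI− (horizontal axis, edgeR estimate) for the 12 miRNAs of lowest unadjusted p and those followed up by the study, on D2 in all 16 rats with its 95% interval (black), on D2 in the 9 rats of the second run of library numbers (open squares), and on D9 (crosses). The squares of the upper 12 lie nearer to 0 than the black points except for miR-429, and the D9 crosses of the first 6 lie below 0.

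Since a p above the threshold does not show equal levels, the 95% interval of each difference is given as a measure of precision. These intervals come from the main fit, which has no term for library number. They do not cover a shift that goes with the run, so they do not exclude a difference above 2-fold. MiR-182, for example, had a log2FC of 0.33 in this fit and 1.31 within the second run, where TBI+ rat 7 was its highest value. For 233 of 555 miRNAs (42.0%) the whole interval lay within a 2-fold difference in either direction. The share was 13 of 290 under 10 CPM (4.48%), 100 between 10 and 100 CPM (75.8%), 65 of 74 between 100 and 1000 CPM (87.8%) and 55 of 59 above 1000 CPM (93.2%). No miRNA of at least 10 CPM had an estimated difference above 2-fold, whereas 74 miRNAs under 10 CPM did. The median half-width of the interval was 1.53 log2 units under 10 CPM and 0.40 above 1000 CPM. The 5 most abundant miRNAs are given as examples. MiR-22-3p was at 154927 ± 35974 CPM in TBI+ and 169844 ± 56926 CPM in TBI− rats (log2FC −0.22, 95% interval −0.68 to 0.24). MiR-92a-3p, a major arm of the miR-17-92 cluster that red cells hold in large amounts, was at 101760.5 ± 16773 and 96729 ± 19609 CPM (95% interval −0.37 to 0.36). MiR-10a-5p was at 79199 ± 15842 and 78857 ± 20303 CPM, and its counts differed by less than 5% from those of miR-10b-5p, so that this pair was not told apart. MiR-192-5p of liver and gut, the fifth in abundance over the 16 rats, was less even, and it ranged from 11192 to 83226 CPM in TBI+ rats (median 28396) and from 13843 to 103411 CPM in TBI− rats (median 36578) (log2FC −0.54, 95% interval −1.32 to 0.24).

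**Figure D3:**
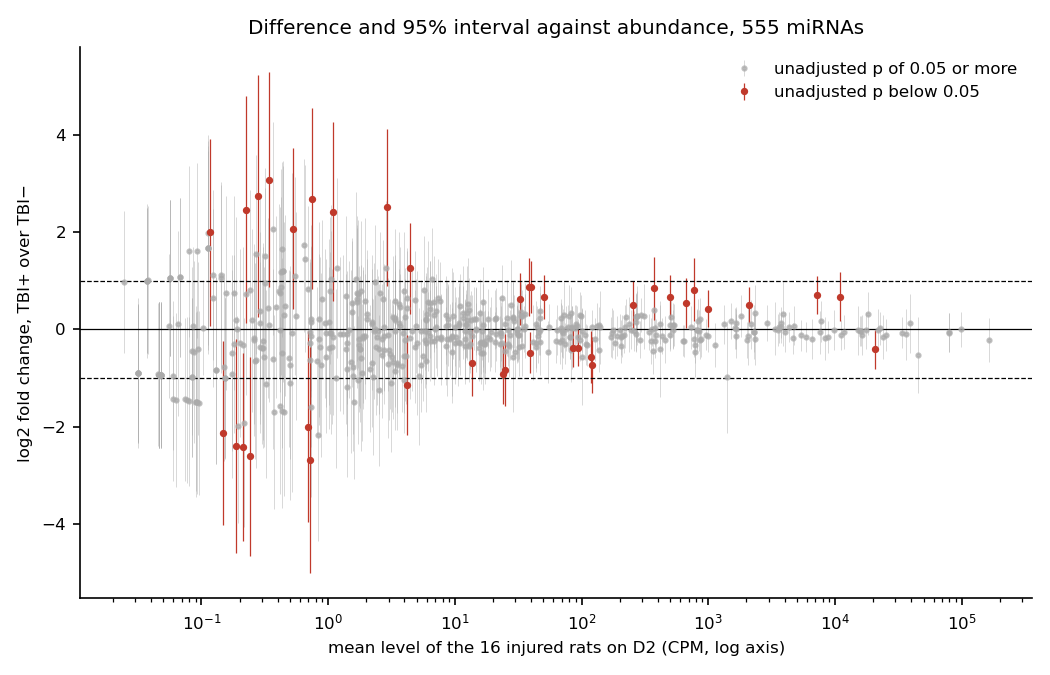
The log2 fold change of TBI+ over TBI− with its 95% interval (vertical axis) against the mean CPM of the 16 injured rats (horizontal log axis) for 555 miRNAs, with dashed lines at a 2-fold difference and the 38 of unadjusted p below 0.05 in red. Intervals narrow with abundance, and the points beyond the dashed lines all lie under 10 CPM.

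Lists of miRNAs for cell types, tissues and loci were described by the counts of their members, none of which was called (background 0.00%). A member is counted as higher or lower in TBI+ by the sign of its log2FC. Some members had no D2 read and are not counted. These were 3 of 30 in the neuron list, 22 of 86 in the Dlk1-Dio3 list and 3 of 33 in the list from epilepsy research. Of 14 neuron-enriched miRNAs of at least 10 CPM, 8 were higher and 6 lower in TBI+ rats, and the median log2FC was 0.24, beside −0.03 over all 265. The 8 include miR-129-1-3p and miR-129-2-3p, whose counts differed by less than 5% and were not told apart. An unadjusted p below 0.05 was given by miR-128-3p and miR-138-5p upward and by miR-212-3p downward, beside 13 upward and 9 downward of the 265 miRNAs at this level. MiR-138-5p, a brain-enriched miRNA of dendrites, was at 1177 ± 371 CPM in TBI+ and 838 ± 249.6 CPM in TBI− rats, but at 1088 ± 61.9 CPM in sham (log2FC 0.42). The summed level of the list was 11024 ± 3417 CPM in TBI+ rats (7037 to 16701), 6758 ± 1503 CPM in TBI− rats (4465 to 9139) and 7552 ± 1609 CPM in sham rats (5630 to 9465), and most of each sum was miR-128-3p. Of the 14 members of the Dlk1-Dio3 locus at this level, 9 were higher and 5 lower in TBI+ (median 0.02). Its most abundant member miR-127-3p was at 540.0 ± 148 and 518 ± 121 CPM, above the 239.5 ± 93.8 CPM of sham in both outcomes. The 31 miRNAs called between injured and sham rats at this level, a list chosen on these samples, had 19 higher and 12 lower members (median 0.06).

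The list of miRNAs studied in epilepsy research had 4 of 21 members higher and 17 lower in TBI+ rats (median log2FC −0.20), and of all 265 miRNAs 113 were higher. The 4 were miR-128-3p, miR-129-5p and the pair miR-129-1-3p and miR-129-2-3p, which was not told apart. Of the 17, miR-155-5p and miR-181a-5p had an unadjusted p below 0.05, as had miR-128-3p in the other direction. MiR-146a-5p, a brake on inflammatory signalling, was at 669.8 ± 219 CPM in TBI+ and 867 ± 441 CPM in TBI− rats (log2FC −0.47), while in the second run alone its log2FC was 0.19. MiR-134-5p, which limits the size of dendritic spines, was at 30.7 ± 7.85 and 30.8 ± 11.6 CPM (log2FC −0.09). MiR-34a-5p, a p53 target, was at 13.1 ± 7.80 and 18.4 ± 4.68 CPM (log2FC −0.48). MiR-146a-5p, miR-134-5p and miR-34a-5p were named after their values were seen.

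Lists for blood and other organs had few members. No D2 read was found for 5 of 14 muscle members, among them miR-1-3p and miR-133a-3p. The same held for 1 of 6 liver and gut members (miR-122-5p) and 2 of 7 vascular members (among them miR-126a-5p). For the oligodendrocyte list it was 4 of 6, and for the epithelial list 5 of 14. Why they had no reads was not tested, and the counts below describe only the members that were read. For red blood cells 4 of 5 members were higher in TBI+ (median 0.14), with miR-16-5p at 23074 ± 6171 and 24639 ± 9795 CPM and miR-16-3p at 15.4 ± 6.58 and 10.98 ± 3.94 CPM. The myeloid list had 3 higher and 5 lower of 8 (median −0.13), with miR-142-5p at 15981 ± 4409.7 and 16569 ± 4912 CPM, and the lymphocyte list 1 higher and 3 lower of 4 (median −0.24). All 4 vascular members were higher (median 0.15). MiR-145-5p of smooth muscle ranged from 435 to 1289 CPM in TBI+ rats (median 689) and from 452 to 722 CPM in TBI− rats (median 494) (log2FC 0.53, 95% interval 0.02 to 1.05). TBI+ rats 1 to 3 held its 3 highest values, all of the first run of library numbers, and within the second run its log2FC was 0.11. MiR-143-3p, made from the same transcript, was at 42291 ± 14598 and 36666 ± 18503 CPM. All 3 liver and gut members were lower (median −0.43), and all 3 muscle members were higher (median 0.34). MiR-133b-3p of muscle was at 439.6 ± 420.1 CPM in TBI+ and 319.5 ± 132.3 CPM in TBI− rats, where TBI+ rat 7 alone reached 1366 CPM. The epithelial list had 5 higher and 1 lower of 6 (median 0.09), the endocrine list 2 higher of 2 (median 0.28), the cartilage list 1 higher and 2 lower of 3 (median −0.12), and the oligodendrocyte list 1 of each. MiR-219a-1-3p, the most abundant of the last, was at 11.7 ± 3.70 and 14.2 ± 3.87 CPM.

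**Figure D4:**
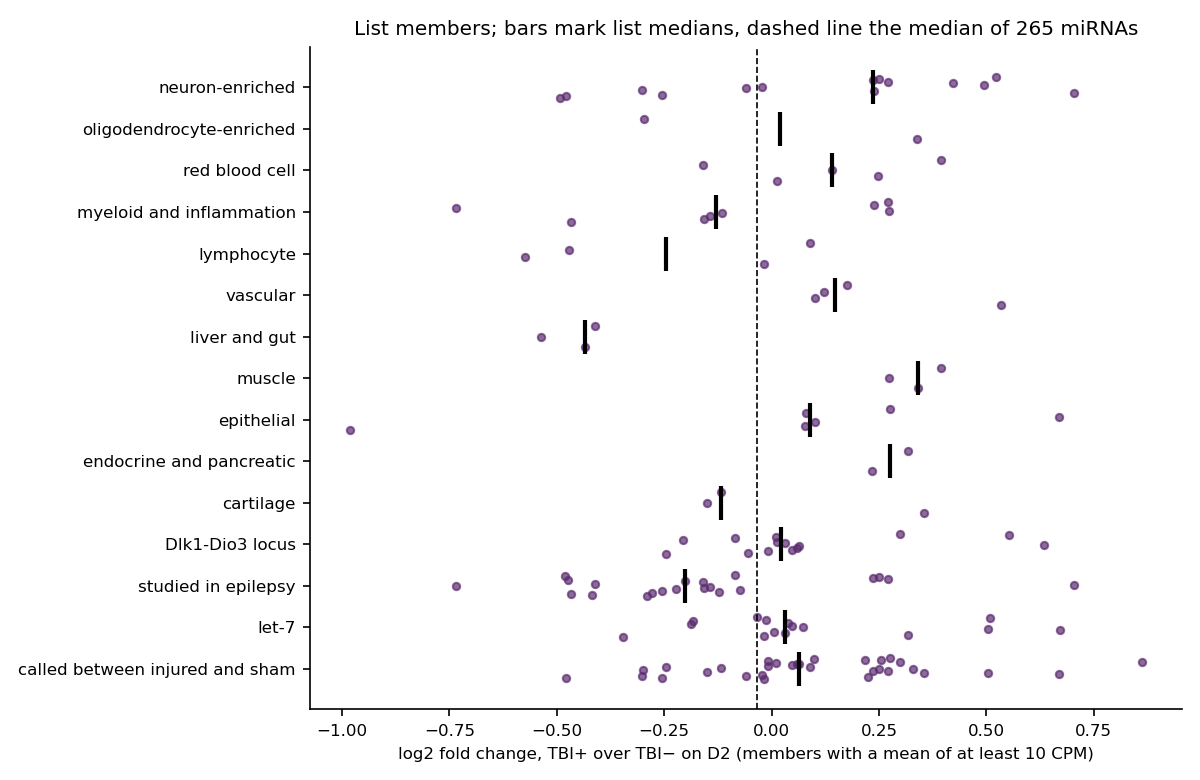
The log2 fold change of TBI+ over TBI− on D2 (horizontal axis) of each list member with a mean of at least 10 CPM (points), by list, with list medians as bars and the median of all 265 such miRNAs as a dashed line. The medians lie on both sides of the dashed line, that of the short liver and gut list furthest below it and that of the short muscle list furthest above it.

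MiRNAs with the same seed had log2FC of both signs, several of them smaller than their standard error, and differences between members were not tested. The let-7 list also holds minor arms without the let-7 seed, and 2 of its 21 members, let-7d-5p and let-7e-5p, had no D2 read. It had 9 higher and 6 lower of the 15 members with a mean of at least 10 CPM (median 0.03). The 9 include let-7a-1-3p and let-7c-2-3p, whose counts differed by less than 5% and were not told apart. Of the 7 miRNAs analysed here whose seed is GAGGUAG, let-7f-5p was at 14319 ± 8378 CPM in TBI+ and 8484 ± 2947 CPM in TBI− rats (log2FC 0.67, unadjusted p = 0.0104 from the edgeR fit). MiR-98-5p had a log2FC of 0.51 and let-7a-5p of 0.32. The more abundant let-7c-5p, at 22489.5 ± 6050.0 and 21468 ± 7431 CPM, had a log2FC of −0.02, while let-7b-5p and let-7g-5p had −0.19 and −0.18 and let-7i-5p had 0.07. In the seed family of miR-181a-5p, ACAUUCA, miR-181b-5p had −0.21, miR-181d-5p −0.19 and miR-181c-5p 0.04.

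A few miRNAs gave a larger or opposite difference once single rats or runs of library numbers were set apart, and they were named after these values were seen. MiR-182, a sensory and epithelial miRNA, ranged from 1292 to 6949 CPM in TBI+ rats (median 1617) and from 1302 to 3459.7 CPM in TBI− rats (median 1809), with 1036 ± 514 CPM in sham (log2FC 0.33, adjusted p = 0.799 from the edgeR test). Its highest value was that of TBI+ rat 7, and without that rat the log2FC was −0.09. Within the second run of library numbers, the 3 TBI+ rats lay between 2649 and 6949 CPM and the 6 TBI− rats between 1302 and 2306 CPM, without overlap. In this run miR-182 was the 1 miRNA of 531 called (0.188%; log2FC 1.31, standard error 0.28, adjusted p = 0.0452 from the edgeR test), and 12 of the 531 did not overlap (2.26%). With TBI+ rat 7 also left out, its log2FC in the run was 0.75 (adjusted p = 0.765 from the edgeR test). The 4 TBI+ rats of the first run were at 1464 ± 163.6 CPM and the 3 TBI− rats of the third run at 2634 ± 890.1 CPM, which is the opposite order.

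The pair miR-19a-3p and miR-19b-3p of the miR-17-92 cluster is shown because its members share the seed GUGCAAA (capitals) and nearly the whole mature sequence.
miR-19a-3p: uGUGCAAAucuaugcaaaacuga
miR-19b-3p: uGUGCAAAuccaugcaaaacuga
MiR-19a-3p ranged from 89.0 to 803 CPM in TBI+ rats (median 559) and from 141 to 629 CPM in TBI− rats (median 204), with 388 ± 145.3 CPM in sham. Of the TBI+ rats, 6 lay between 454 and 803 CPM and rat 7 was the lowest of all 16. Only 1 TBI− rat, rat 9 at 629 CPM, exceeded the TBI+ median. The log2FC was 0.84 for miR-19a-3p and 0.82 for miR-19b-3p (standard errors 0.32 and 0.32, adjusted p = 0.490 each from the edgeR test). In the second run without TBI+ rat 7, which leaves 2 TBI+ against 6 TBI− rats, it was 1.66 and 1.65 and both were called (adjusted p = 0.00417 each from the edgeR test). Rat 7, the lowest value, was left out after its values were seen, and this run does not hold TBI− rat 9. These calls are therefore not independent evidence. The counts of miR-19b-3p, which has 2 genes, were even in 15 of 20 D2 libraries, and counting at both genes was not tested. On D9 the pair had log2FC of −0.11 and −0.07. MiR-205, an epithelial miRNA, ranged from 189 to 4062 CPM in TBI+ rats (median 402) and from 279 to 6298 CPM in TBI− rats (median 1078) (log2FC −0.98), but its log2FC within the second run was 0.88. There, TBI+ rat 6 at 4062 CPM was the highest, and without it the log2FC over all runs was −2.11, whereas without TBI− rat 7 it was −0.46. MiR-375-3p, known from pancreatic islets and gut endocrine cells, ranged from 2623 to 10545 CPM in TBI+ rats (median 3109) and from 1513 to 9977 CPM in TBI− rats (median 2232), with 1 rat of each outcome near the top.

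**Figure D5:**
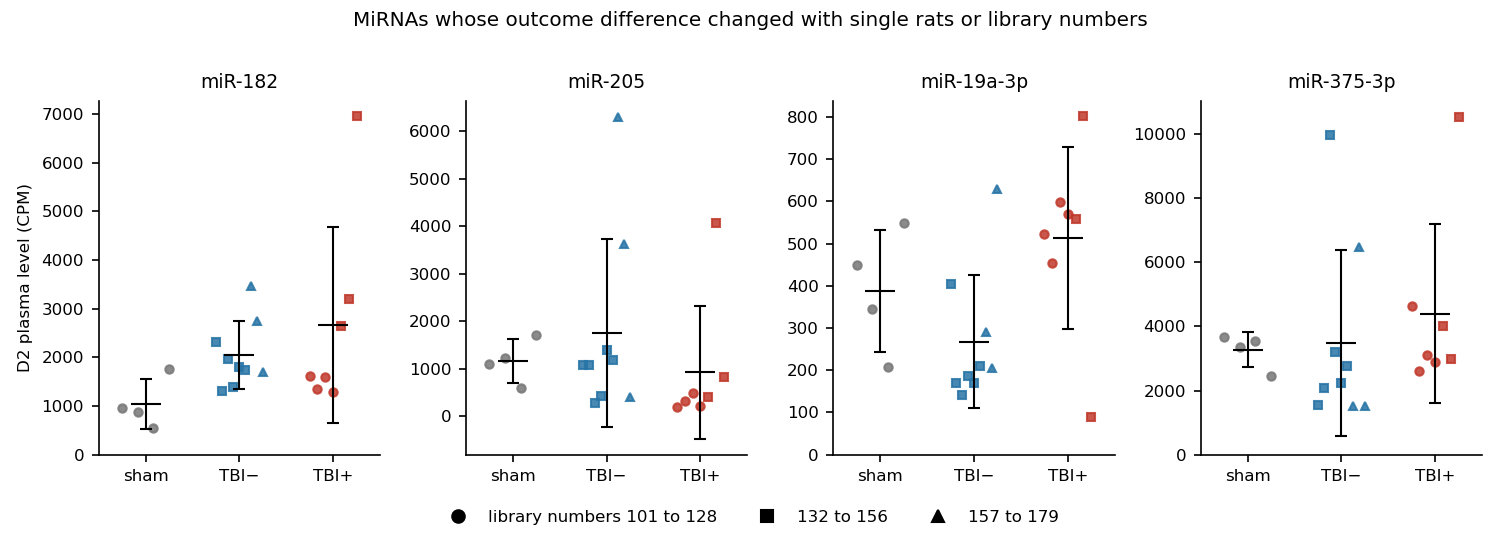
Plasma level in CPM of each rat on D2 (points, linear axis) for miR-182, miR-205, miR-19a-3p and miR-375-3p, with the mean and SD of sham (n = 4), TBI− (n = 9) and TBI+ rats (n = 7) as black bars and the run of library numbers as the marker shape. TBI+ rat 7 is the highest in miR-182 and miR-375-3p and the lowest in miR-19a-3p, and TBI+ rat 6 is the highest TBI+ rat in miR-205.

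Among rare miRNAs, 21 had reads only in TBI+ rats and 33 only in TBI− rats, while 501 had reads in both. Of the 21, 17 were found in 1 rat, 18 had at most 3 reads in all and none had more than 7 reads. Of the 33, 23 were found in 1 rat, 29 had at most 3 reads and none had more than 6. The 21 include miR-216b-3p of the pancreas (7 reads in 3 TBI+ rats) and miR-499-3p of heart and slow muscle (3 reads in 1 TBI+ rat). The 33 include miR-666-5p of the Dlk1-Dio3 locus (4 reads in 3 TBI− rats). At the floor of 3 reads per library such presence and absence was not a detectable difference. Over the 265 miRNAs the median SD of log2 CPM between rats was 0.443 in TBI+, 0.501 in TBI− and 0.376 in sham rats. The SD was larger in TBI− than in TBI+ rats for 170 of them and larger in TBI+ for 95, a difference that was not tested.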

How the data were processed

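The authors made TruSeq small RNA libraries from plasma RNA, sequenced them as single reads on a HiSeq instrument, trimmed the reads with Trimmomatic 0.36, merged both flow cells, aligned to the rat build Rno6 with Bowtie2 and counted miRBase miRNAs with featureCounts. They deposited raw counts of 752 miRNAs in 40 libraries, which were used as counts. The versions of Bowtie2 and featureCounts are not given in the sources used here.

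CPM is a miRNA's count divided by the library's sum over all miRNAs, times 1000000. The main test was edgeR 4.0.16 (R 4.3.3), with TMM scaling and a quasi-likelihood fit of all 20 D2 libraries, the contrast TBI+ minus TBI−, with p-values adjusted by Benjamini-Hochberg over all 565 miRNAs that had a D2 read. A miRNA was called at an adjusted p below 0.05. Single values were compared by two-sided exact permutation over 11440 arrangements, of log2 of CPM + 1 for a miRNA. Alternatives were DESeq2 1.42.0, other scalings and filters, thinning to 404542 reads (seed 1), library-number runs, a hemolysis covariate, a replicate block and each rat left out in turn. Tables used pandas 2.3.3, scipy 1.17.1 and numpy 2.4.6 in Python 3.11.15, and plots matplotlib 3.10.9.

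Named miRNAs were the 6 of lowest unadjusted p in each direction at a mean of at least 10 CPM, those the study followed up, the 5 most abundant, and per list the most abundant member and that of lowest p. Any other name was chosen after its values were seen. The members and lists were chosen with earlier results of these data known. MiRNA sequences came from RefSeq for the assembly GRCr8, which listed 517 of the 565 miRNAs. No coordinates are printed, because that assembly is not the build of the counts. Library sums set the precision, and 0 pairs of libraries were identical.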

Additional observations from a re-analysis of the deposited data

Results flagged for a closer look

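On D2, 8 of 98 tested group values (8.16%) had 1 rat far from the others of its group by Dixon's test at 95%. A chance rate of about 1 in 20 holds for independent values with a normal spread. The values here were CPM on the linear scale and library measures, for which neither was checked, so the share is not compared with that rate. TBI+ rat 7 stood above its group in miR-182 (6949 CPM, next 3197), miR-375-3p (10545 CPM, next 4631) and miR-133b-3p (1366 CPM, next 481). TBI+ rat 6 stood above it in miR-205 (4062 CPM, next 833) and miR-219a-1-3p (19.5 CPM, next 12.1). TBI+ rat 1 was the only TBI+ rat with reads of miR-499-3p (1.79 CPM, the others 0), and TBI+ rat 4 had reads on 371 miRNAs where the next had 415. Among TBI− rats, rat 1 stood above its group in miR-455-3p (11.9 CPM, next 5.81).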

How the results depend on the processing

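In 29 miRNAs, 993 of 1073 log2FC values under an alternative kept the direction and the side of the threshold, 11 passed the threshold and 69 changed sign, and 18 miRNAs never changed sign. The edgeR test called 1 of 531 miRNAs within the second run of library numbers and 1 of 565 with the run as a covariate (miR-182, log2FC 1.31 and 1.26). Both fits without TBI+ rat 7, chosen after the data were seen, called 2, of 520 and 560 miRNAs (miR-19a-3p 1.66 and 1.63, miR-19b-3p 1.65 and 1.62). Leaving out each rat, with 559 to 565 miRNAs tested, gave 0 to 2 calls, 32 to 44 miRNAs at an unadjusted p below 0.05 and 0 to 2 without overlap. The 2 calls came without TBI− rat 2 (miR-345-3p 1.09, miR-1249 1.15, adjusted p = 0.0310 and 0.0339 in edgeR). At an unadjusted p below 0.05 there were 20 in a refit of the 265 miRNAs of at least 10 CPM alone, beside 22 of the same 265 in the main fit. There were 25 of 540 after thinning, 24 of 531 within the run and 24 of 565 with the run covariate. Without TBI+ rat 7 the run gave 18 of 520 and the run covariate 16 of 560. Permutation gave 19 of 555, and the main fit had 38 of 565. Within the run 12 of 531 miRNAs did not overlap (2.26%). Same-numbered rats did not deviate together (correlations −0.458 to 0.237). This gives no sign that the replicate numbers pair rats but cannot exclude it, and the sources used here describe no pairing. With the replicate number as a block, 544 miRNAs were tested. There were 3 calls (miR-205 −1.19, miR-19a-3p 1.10, miR-19b-3p 1.07) and 22 miRNAs at an unadjusted p below 0.05. The block changed no other call among the named miRNAs.

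Signs turned for small log2FC. MiR-124-3p was 0.026 in DESeq2, 0.024 with RLE, 0.060 with totals, 0.047 with miR-28-3p scaling, 0.0087 with filterByExpr, 0.031 at 10 CPM, 0.18 thinned, 0.034 with the block and 0.025 by permutation. MiR-149-5p was 0.021 in DESeq2, 0.020 with RLE, 0.072 with totals, 0.11 with miR-28-3p, 0.017 at 10 CPM, 0.17 thinned and 0.064 by permutation. MiR-455-5p was 0.0057 with totals and 0.045 with miR-28-3p. Scaling to miR-28-3p moved the median by 0.11. Thinning gave −0.14 for miR-136-3p, −0.23 for miR-16-3p and a difference of −3.62 in miRNAs with a read. Within the run, miR-132-3p was 0.14, miR-323-3p −0.030, miR-28-3p 0.0034, miR-219a-1-3p 0.11 and miR-205 0.88. With the run covariate, miR-132-3p was 0.093, miR-136-3p −0.016, miR-323-3p −0.091, miR-219a-1-3p 0.064 and miR-205 0.83. Without TBI+ rat 7 the run gave −0.27 for miR-136-3p, −0.49 for miR-323-3p, 0.016 for miR-28-3p, 0.20 for miR-219a-1-3p and 1.18 for miR-205, and the covariate −0.29 for miR-136-3p, −0.51 for miR-323-3p, 0.18 for miR-219a-1-3p and 1.15 for miR-205. Leaving out each rat gave −0.32 to 0.16 for miR-124-3p, −0.026 to 0.14 for miR-136-3p, −0.022 to 0.21 for miR-323-3p, −0.070 to 0.071 for miR-149-5p, −0.31 to 0.052 for miR-455-5p, −2.11 to −0.46 for miR-205 and −0.090 (without TBI+ rat 7) to 0.52 for miR-182. The differences in library measures ranged from −0.022 to 0.098 in log10 total, −3.77 to 9.50 in miRNAs with a read and −0.12 to 0.15 in the hemolysis index. The cause of these changes was not tested.

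Depth limits the miRNAs under 10 CPM, of which 13 of 290 had an interval within 2-fold. The p-values rest on the spread among all 20 D2 libraries, sham included, and on D2 outcome and library number cannot be told apart outside the second run.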
